A study of Homo sapiens with 16 samples.

Results

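PDK1, PDK2, PDK3, PDK4, SLC16A1, SLC16A3, MPC1 and MPC2 set where pyruvate and lactate go in a cell. They were taken by symbol from a list of kinases of pyruvate dehydrogenase and of carriers of lactate and pyruvate, chosen for a link to Wnt signalling, and are 8 of the 26485 genes in each count file. All 8 had enough counts to be tested in both cell lines.

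Pyruvate made by glycolysis either enters mitochondria through a carrier made of MPC1 and MPC2 or is reduced to lactate in the cytosol. Inside mitochondria the pyruvate dehydrogenase complex turns it into acetyl-CoA, and the 4 PDK kinases switch that complex off by phosphorylation. SLC16A1 (MCT1) and SLC16A3 (MCT4) move lactate, with a proton, across the cell membrane, and SLC16A3 is the form typical of glycolytic cells that export it. PDK1 and SLC16A1 have been described as Wnt-dependent genes of colon cancer cells, while PDK1, PDK3 and SLC16A3 are known to respond to hypoxia-inducible factors and PDK4 to PPARs and glucocorticoids.

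Polyadenylated RNA was measured in SW480 and SW620, human colon cancer lines derived from a primary tumour and a lymph node metastasis of the same patient, both with a truncated APC and high Wnt signalling. Each line carried GFP, the mock control labelled Wnt high, or dnLEF1, a LEF1 without its beta-catenin binding part, which the labels call Wnt inhibited. The 4 groups (SW480 GFP, SW480 dnLEF1, SW620 GFP and SW620 dnLEF1) had 4 libraries each, all at passage 6 in DMEM, and the labels name no other treatment. The labels give neither how the constructs were introduced, nor whether a group is 1 clone, nor whether its libraries came from separate cultures, so p-values cover only how far these samples vary, and that variation may be technical.

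Gene counts ran from 17181204 to 26153506 per library. SW620 GFP replicate 3 stood apart, with 39.4% of its total in reads aligned to several places and not counted to genes. LEF1 checked the labels: it went from 51.7 ± 1.89 to 246 ± 49.1 CPM (counts scaled to a common library size; mean ± SD, n = 4) in SW480 and from 3.36 ± 0.501 to 23.3 ± 2.35 CPM in SW620, with no overlap of groups. SW620 thus had less LEF1 with dnLEF1 (23.3 CPM) than SW480 had with GFP (51.7 CPM). Counts by symbol do not separate the construct from the cells' own LEF1. The part of the LEF1 levels in the line differences was not tested. AXIN2, a feedback target of Wnt signalling, went from 550 ± 11.2 to 69.8 ± 4.49 CPM in SW480 and from 333 ± 14.6 to 320 ± 11.2 CPM in SW620. Of 8 Wnt feedback targets, 8 fell in SW480 (median log2 fold change −2.82), beside 24.4% of all genes tested. In SW620 only ZNRF3 fell and APCDD1 rose (median −0.06), beside 2.43% lower and 6.03% higher of all genes tested. The SW620 call of ZNRF3 was lost in 1 fit of all 16 libraries and without SW620 GFP replicate 2, 3 or 4 or SW620 dnLEF1 replicate 1 or 2 (edgeR adjusted p up to 0.09152). Colon epithelial markers summed to 10700 to 12500 CPM in SW480 GFP, 7090 to 8510 in SW480 dnLEF1, 9940 to 12200 in SW620 GFP and 8530 to 10800 in SW620 dnLEF1. In SW480, 7 of their 8 tested members fell with dnLEF1 and CDH1 rose, beside 24.4% lower and 24.2% higher of all genes tested. CDX1 was at 0 in every library outside SW480 GFP, and CDH17 in every SW480 dnLEF1 library. Marker sums for other cell types were at most 38 CPM, but some moved with dnLEF1 in SW480. There the 9 blood cell genes went from a range of 3.62 to 4.34 CPM with GFP to one of 5.76 to 8.53 CPM with dnLEF1. The 6 endothelial genes were 0.553 to 1.37 and 2.27 to 3.89 CPM, and the 8 fibroblast genes 8.89 to 17.6 and 14.9 to 38 CPM. The blood cell and endothelial ranges did not overlap. COL1A1, CD68 and VWF rose (log2 2.54, 1.27 and 1.80), LUM went from 7.20 ± 2.69 CPM to 0 in every dnLEF1 library, and PDGFRB fell (log2 −1.87). PTPRC, CD3E, CD3D, MS4A1, HBB and DCN were also at 0 in every SW480 dnLEF1 library. Of these, CD3D, MS4A1 and DCN were at 0 in every SW480 GFP library as well. The part of these markers, and of the epithelial ones, in the SW480 results was not tested. In SW620 the sums were 22.3 to 34.3 and 29.2 to 32.6 CPM (fibroblast), 3.26 to 5.08 and 2.28 to 3.68 (blood), and 1.03 to 1.33 and 1.10 to 2.01 (endothelial) with GFP and dnLEF1. In bulk RNA, fewer cells of a type and less RNA per cell cannot be told apart.

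Promoters of PDK1, which was called in neither line, and of PDK3, PDK4, SLC16A3 and MPC1, called in SW480, are shown. Letters that hypoxia-inducible factors are known to bind are in capitals (ACGTG, or its reverse complement CACGT). They are RefSeq windows of 300 bases around an annotated start (GRCh38.p14), written 5′ to 3′ on the gene's strand. PDK1 and SLC16A3 are shown at their second listed start, picked as the only listed start of each whose window holds the motif. The windows lie at chr2:172555840-172556139 (PDK1, plus strand), chrX:24465036-24465335 (PDK3, plus), chr7:95596467-95596766 (PDK4, minus), chr17:82228792-82229091 (SLC16A3, plus) and chr6:166382891-166383190 (MPC1, minus).
PDK1: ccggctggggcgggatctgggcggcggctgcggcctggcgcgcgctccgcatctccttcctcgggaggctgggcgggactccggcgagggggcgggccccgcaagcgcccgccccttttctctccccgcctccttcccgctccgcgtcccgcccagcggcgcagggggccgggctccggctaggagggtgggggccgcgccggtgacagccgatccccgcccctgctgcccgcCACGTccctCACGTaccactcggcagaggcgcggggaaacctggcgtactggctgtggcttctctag
PDK3: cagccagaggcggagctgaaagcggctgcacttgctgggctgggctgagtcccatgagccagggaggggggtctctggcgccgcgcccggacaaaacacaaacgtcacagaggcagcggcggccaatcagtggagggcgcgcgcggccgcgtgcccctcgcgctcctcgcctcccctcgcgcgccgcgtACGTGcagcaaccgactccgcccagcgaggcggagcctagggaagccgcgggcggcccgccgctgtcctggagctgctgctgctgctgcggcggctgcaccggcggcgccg
PDK4: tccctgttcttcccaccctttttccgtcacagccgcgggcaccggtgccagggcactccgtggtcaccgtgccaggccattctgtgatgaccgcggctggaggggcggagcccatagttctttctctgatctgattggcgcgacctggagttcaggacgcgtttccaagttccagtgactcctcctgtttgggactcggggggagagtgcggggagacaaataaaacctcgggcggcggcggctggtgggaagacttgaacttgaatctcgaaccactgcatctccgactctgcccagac
SLC16A3: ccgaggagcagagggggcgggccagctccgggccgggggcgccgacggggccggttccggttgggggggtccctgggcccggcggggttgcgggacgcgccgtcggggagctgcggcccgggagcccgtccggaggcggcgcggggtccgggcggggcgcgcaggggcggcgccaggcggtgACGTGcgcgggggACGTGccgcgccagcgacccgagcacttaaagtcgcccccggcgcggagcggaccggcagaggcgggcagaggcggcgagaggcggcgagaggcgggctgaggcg
MPC1: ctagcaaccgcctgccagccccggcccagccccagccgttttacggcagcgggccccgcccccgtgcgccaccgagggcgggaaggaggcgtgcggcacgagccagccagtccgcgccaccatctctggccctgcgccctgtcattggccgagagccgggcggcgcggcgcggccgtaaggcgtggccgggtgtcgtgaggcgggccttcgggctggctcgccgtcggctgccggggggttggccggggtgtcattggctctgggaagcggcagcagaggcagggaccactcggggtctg

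RefSeq windows were found for 7 of the 8 genes, 16 in all, some of them overlapping; SLC16A1 was not matched. ACGTG was searched on both strands and stood in 4 of the 16 windows, against 21.4% of all 35116 RefSeq windows of that length. It stood at 2 separate places each in the PDK1 and SLC16A3 windows shown and at 1 place in PDK3. In the second PDK2 window its 2 matches overlap in a single CACGTG, which reads the same on both strands. The TCF/LEF letters CTTTGAT, on either strand, stood in 0 of the 16 windows and in 2.62% of all windows. Their shorter core CTTTG, which every full match contains, stood on either strand in 5 of the 16 windows, those of PDK2 and SLC16A3, and in 47.5% of all. These are matches of letters and show no binding, and distant elements were not searched.

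In SW480, dnLEF1 libraries had less PDK3, SLC16A1 and PDK4 and more SLC16A3 and MPC1 than GFP libraries. A gene is called changed where edgeR's quasi-likelihood test gave a Benjamini-Hochberg adjusted p below 0.05 over all genes tested. On that rule 3 of the 8 genes fell, 2 rose and 3 were not called. That is 5 of 8, beside 48.5% of all 14426 genes tested (24.4% lower, 24.2% higher), and is to be read against that background. In the 5 called genes the 4 libraries of one group were all above or all below those of the other, as in 45% of all genes tested. The median log2 fold change was −0.12 over the 8 genes and −0.0013 over all genes.

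PDK3, a kinase isoform relatively insensitive to inhibition by pyruvate, lies on chromosome X at 24465244 to 24550466 (hg38, plus strand). Its level was 43.1, 46.6, 42.6 and 49.0 CPM in SW480 GFP and 20.04, 23.4, 22.3 and 20.6 CPM in SW480 dnLEF1. Every dnLEF1 library was below every GFP library. The group means were 45.3 ± 3.02 and 21.6 ± 1.54 CPM, a 2.09-fold fall (log2 −1.07 ± 0.08 SE, edgeR adjusted p = 4.779e-08). In SW620 the same gene stood at 49.2, 55.5, 55.7 and 52.5 CPM with GFP and 48.2, 43.3, 53.7 and 51.7 CPM with dnLEF1. There the groups overlapped and PDK3 was not called (log2 −0.11 ± 0.08, edgeR adjusted p = 0.4722). The dnLEF1 effect differed between the lines by 0.96 ± 0.11 on the log2 scale (interaction over all 16 libraries, edgeR adjusted p = 7.717e-07).

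SLC16A1, on chromosome 1 at 112911847 to 112957593 (minus strand), was the most abundant of the 8 genes per kilobase of annotated exon in every group, but with the longest transcript as the length it came after SLC16A3 in SW620 dnLEF1 (66.1 against 73.1 CPM per kilobase). SW480 GFP libraries held 379, 424, 402 and 420 CPM and SW480 dnLEF1 libraries 193, 234, 235 and 244 CPM. The groups were far apart, with means of 406 ± 20.5 and 226 ± 22.5 CPM. The fall was 1.79-fold (log2 −0.84 ± 0.08, edgeR adjusted p = 5.941e-07). SW620 held 328, 316, 320 and 312 CPM with GFP and 314, 273, 284 and 286 CPM with dnLEF1. Of the dnLEF1 libraries there only replicate 1 reached into the range of the GFP libraries. The SW620 difference was −0.14 ± 0.06 and was not called (edgeR adjusted p = 0.1601, unadjusted 0.0233), and it was called with the replicate number as a block (adjusted p = 0.0435). The effects in the lines differed by 0.70 ± 0.10 (edgeR adjusted p = 1.015e-05).

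PDK4, the isoform induced by fasting signals in many tissues, lies on chromosome 7 at 95583499 to 95596516 (minus strand) and was the scarcest of the 8 by counts. SW480 GFP libraries had 8.65, 9.03, 9.90 and 9.66 CPM and SW480 dnLEF1 libraries 3.98, 6.94, 6.23 and 5.23 CPM. No dnLEF1 library reached the GFP range, though the dnLEF1 libraries varied more among themselves. The fall was 1.66-fold (log2 −0.73 ± 0.15, edgeR adjusted p = 0.001). In SW620, PDK4 rested on 14 to 51 counts per library: 0.635, 0.968, 1.49 and 1.38 CPM with GFP and 1.19, 1.04, 1.10 and 2.12 CPM with dnLEF1. The highest dnLEF1 value came from replicate 4, the groups overlapped, and the difference was not called (log2 0.31 ± 0.31, 95% interval −0.35 to 0.97, edgeR adjusted p = 0.6451). The effects in the lines differed by 1.05 ± 0.34 (edgeR adjusted p = 0.02491). That call was lost without SW620 GFP replicate 1 (adjusted p = 0.06228), SW620 GFP replicate 2 (0.0521) or SW620 dnLEF1 replicate 4 (0.1138).

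SLC16A3, on chromosome 17 at 82217934 to 82261129 (plus strand), went the other way from SLC16A1 in SW480. Its level was 164, 173, 168 and 174 CPM with GFP and 222, 216, 212 and 261 CPM with dnLEF1. The groups did not overlap, and replicate 4 was the highest dnLEF1 library. The rise was 1.34-fold (log2 0.43 ± 0.07, edgeR adjusted p = 0.0002497). SW620 libraries had 355, 311, 296 and 338 CPM with GFP and 344, 385, 316 and 366 CPM with dnLEF1, overlapping and not called (log2 0.12 ± 0.07, edgeR adjusted p = 0.4106). The line difference of −0.30 ± 0.11 was called (edgeR adjusted p = 0.03536). It was lost on leaving out any of 7 libraries: SW480 GFP replicate 1 (adjusted p = 0.05977) or 3 (0.05863), SW480 dnLEF1 replicate 4 (0.08442), SW620 GFP replicate 1 (0.07713) or 4 (0.05651), and SW620 dnLEF1 replicate 1 (0.06409) or 3 (0.06984).

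MPC1 and MPC2, are the obligate partners of the mitochondrial carrier, and in SW480 MPC1 rose while MPC2 was not called. MPC1, on chromosome 6 at 166364919 to 166383013 (minus strand), had 19.8, 17.5, 20.6 and 17.6 CPM in SW480 GFP and 23.4, 24.7, 23.2 and 26.8 CPM in SW480 dnLEF1. All dnLEF1 libraries were above all GFP libraries, a 1.30-fold rise (log2 0.38 ± 0.09, edgeR adjusted p = 0.00228). In SW620 it was 28.1 to 35.4 CPM with GFP and 26.3 to 30.7 CPM with dnLEF1, with overlap and no call (log2 −0.14 ± 0.08, edgeR adjusted p = 0.3949). The effects in the lines differed by −0.52 ± 0.12 (edgeR adjusted p = 0.0029). MPC2, on chromosome 1 at 167916675 to 167937072 (minus strand), was 41.2 to 47.2 CPM with GFP and 41.95 to 45.9 CPM with dnLEF1 in SW480, a log2 difference of −0.03 with a 95% interval of −0.18 to 0.12. In SW620 MPC2 was 55.9 to 60.2 and 54.5 to 58.6 CPM (log2 −0.02, interval −0.14 to 0.10). Of the exon bases of MPC2, 21.8% are shared with DCAF6, and since the kit does not mark strand the reads of the pair cannot be told apart there.

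PDK1 and PDK2 were not called in either line. PDK1, on chromosome 2 at 172555373 to 172608669 (plus strand), is the isoform that has been linked to Wnt signalling in colon cancer. It had 23.2, 19.7, 18.8 and 21.7 CPM in SW480 GFP and 20.4, 17.01, 17.9 and 16.2 CPM in SW480 dnLEF1, overlapping through dnLEF1 replicate 1. The difference was −0.22 ± 0.10 (95% interval −0.42 to −0.01, edgeR adjusted p = 0.07406, unadjusted 0.03916). It was called without SW480 dnLEF1 replicate 1 (log2 −0.29, adjusted p = 0.02106) and in 1 fit of all 16 libraries (adjusted p = 0.03747). In SW620 PDK1 had 25.3, 22.7, 23.3 and 21.4 CPM with GFP and 20.8, 19.0, 20.3 and 20.8 CPM with dnLEF1. Those groups did not overlap, as held for 13.7% of the genes tested in SW620, and the difference was −0.19 ± 0.07 (interval −0.35 to −0.04, edgeR adjusted p = 0.1436). The effects in the lines differed by 0.03, with an interval of −0.23 to 0.28 (edgeR adjusted p = 0.9071).

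PDK2, on chromosome 17 at 50094737 to 50112152 (plus strand), shares 38.6% of its exon bases with SAMD14, so part of its reads may be counted to either gene or to none. It was 26.2 to 37.1 CPM in SW480 GFP and 35.4 to 37.8 CPM in SW480 dnLEF1 (log2 0.20 ± 0.09, edgeR adjusted p = 0.08385), and it was called without SW480 GFP replicate 2, the highest of its group (log2 0.29, adjusted p = 0.02151). In SW620 it was 15.01 to 17.9 and 16.5 to 18.7 CPM, a difference of 0.07 with an interval of −0.11 to 0.25.

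**Figure D1:**
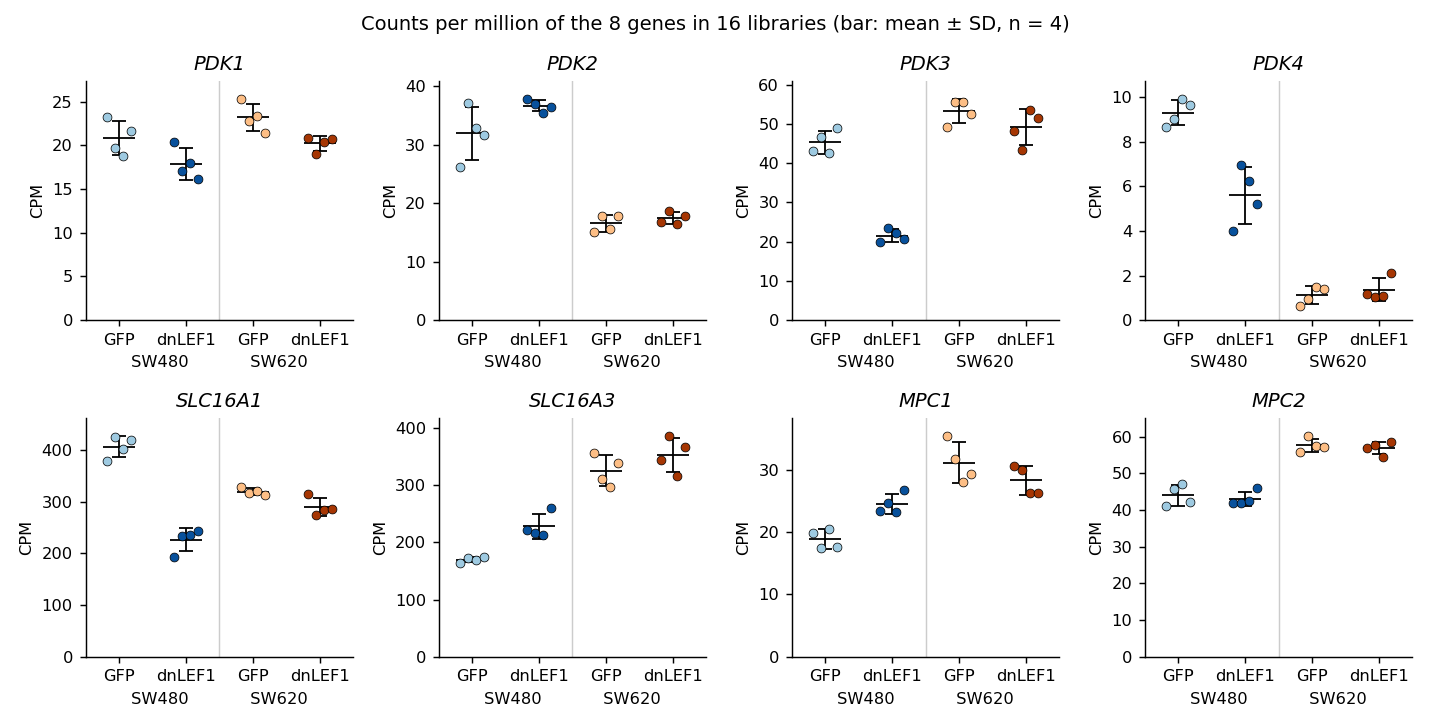
CPM of the 8 genes (vertical axes, linear from 0) in the 16 libraries by line and construct. Points are libraries and bars the mean ± SD of 4. PDK3, PDK4, SLC16A1, SLC16A3 and MPC1 separate the SW480 groups without overlap, and in SW620 PDK1 alone does so.

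In SW620, 0 of the 8 genes were called by edgeR, beside 8.46% of 13336 genes tested (6.03% higher, 2.43% lower). At an unadjusted p below 0.05, PDK1 and SLC16A1 passed, 2 of 8 beside 2636 of all 13336 genes. The median log2 fold change was −0.06 over the 8 genes and −0.0044 over all genes. Between the lines, the dnLEF1 effect differed for 5 of the 8 genes (3 with a more positive and 2 with a more negative effect in SW620), beside 28.5% of 14926 genes tested (16.2% more positive, 12.3% more negative). The 5 are those called in SW480: PDK3, PDK4, SLC16A1, SLC16A3 and MPC1. The line difference uses the same libraries as the comparisons within the lines.

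**Figure D2:**
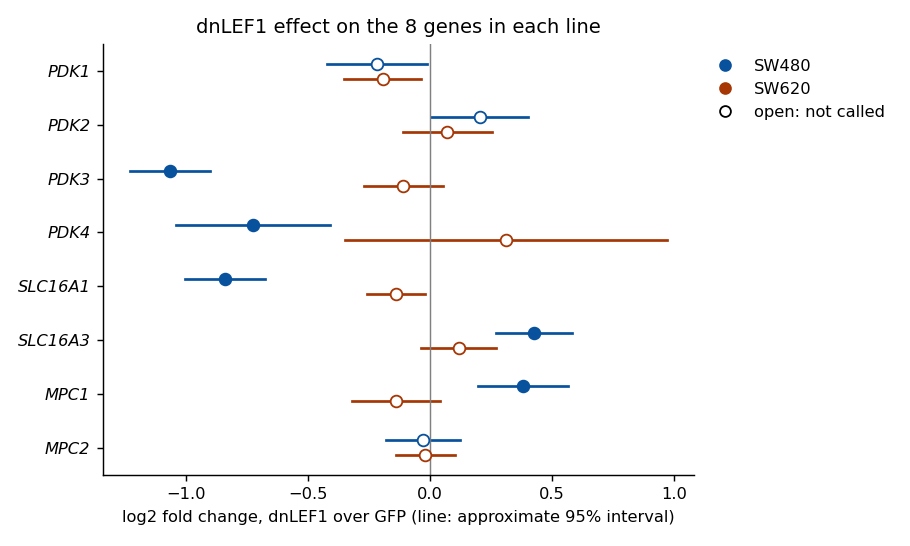
Log2 fold change of dnLEF1 over GFP (horizontal axis) for the 8 genes in SW480 (blue) and SW620 (orange), with approximate 95% intervals; filled points were called. PDK3 lies at −1.07 in SW480 and −0.11 in SW620, and PDK1 at −0.22 and −0.19.

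The control cells of the lines also differed in these genes. In SW620 GFP against SW480 GFP, 4 of the 8 were higher, 3 were lower and PDK1 was not called, beside 78% of 14350 genes called (37.7% higher, 40.3% lower). The libraries of the lines did not overlap for the 7 called genes, as for 72.5% of all genes tested. These are the GFP libraries used within each line. PDK4 was 8.38-fold lower in SW620 (9.31 ± 0.575 against 1.12 ± 0.394 CPM, log2 −3.07 ± 0.19, edgeR adjusted p = 2.246e-09) and PDK2 was 1.93-fold lower (log2 −0.95 ± 0.10). SLC16A1 was 1.28-fold lower and SLC16A3 1.90-fold higher (log2 0.93 ± 0.06, edgeR adjusted p = 4.588e-09). MPC1 was 1.65-fold, MPC2 1.30-fold and PDK3 1.17-fold higher. PDK1 differed by 0.15 (interval −0.04 to 0.33, edgeR adjusted p = 0.1326) and was called without SW480 GFP replicate 1 (adjusted p = 0.03821).

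Levels can be compared between genes only per kilobase of exon. In SW480 GFP the order of the mean levels was SLC16A1 (64.0 ± 3.22 CPM per kilobase), SLC16A3 (18.4 ± 0.475), MPC2 (16.7 ± 1.08), MPC1 (12.3 ± 1.02), PDK2 (5.84 ± 0.825), PDK3 (2.60 ± 0.173), PDK4 (2.05 ± 0.127) and PDK1 (1.40 ± 0.134). The carriers thus stood above the kinases, and only SLC16A3 and MPC2 overlapped among neighbours in that order. In SW480 dnLEF1 the last 3 kinases lay together, at 1.24 ± 0.0883 for PDK3, 1.23 ± 0.283 for PDK4 and 1.20 ± 0.122 for PDK1, and MPC2 overlapped MPC1. In SW620 GFP PDK3 (3.05 ± 0.175) and PDK2 (3.03 ± 0.267) led the kinases, and PDK4 came last at 0.246 ± 0.0867. With the longest transcript as the length, PDK2 (4.93) stood above PDK3 (4.18) there. Of the exon bases of PDK2, 38.6% are shared with SAMD14, which its level per kilobase does not account for. In SW620 GFP the overlapping neighbours were MPC2 with MPC1 and PDK3 with PDK2, and in SW620 dnLEF1 PDK2 with PDK3. With the longest transcript as the length, 28 of the 28 pairs of genes kept their order in SW480 GFP, 27 in SW480 dnLEF1 and 26 in each SW620 group. The annotated exons of PDK1 (14845 bases) and PDK3 (17456 bases) are long, so their levels per kilobase would be higher if shorter forms were expressed.

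The fold change of a family ratio between groups does not depend on the lengths used, but the ratio itself does. With the longest transcript as the length, MPC1 (31.9 CPM per kilobase) stood above MPC2 (25.9) in SW620 GFP. On that scale SLC16A1 (66.1) stood below SLC16A3 (73.1) in SW620 dnLEF1. The ratios given here use the annotated exons. SLC16A1 over SLC16A3 was 3.48 ± 0.0894 in SW480 GFP, 1.45 ± 0.167 in SW480 dnLEF1, 1.43 ± 0.112 in SW620 GFP and 1.20 ± 0.142 in SW620 dnLEF1. The lowest SW480 GFP library (3.35) was above the highest library of the other groups (1.61). PDK3 over PDK2 went from 0.450 ± 0.0600 to 0.185 ± 0.0158 in SW480 and from 1.01 ± 0.0807 to 0.889 ± 0.121 in SW620. MPC1 over MPC2 went from 0.735 ± 0.0708 to 0.974 ± 0.0347 in SW480, without overlap, and from 0.928 ± 0.109 to 0.853 ± 0.0684 in SW620, with overlap. These ratios were not tested.

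**Figure D3:**
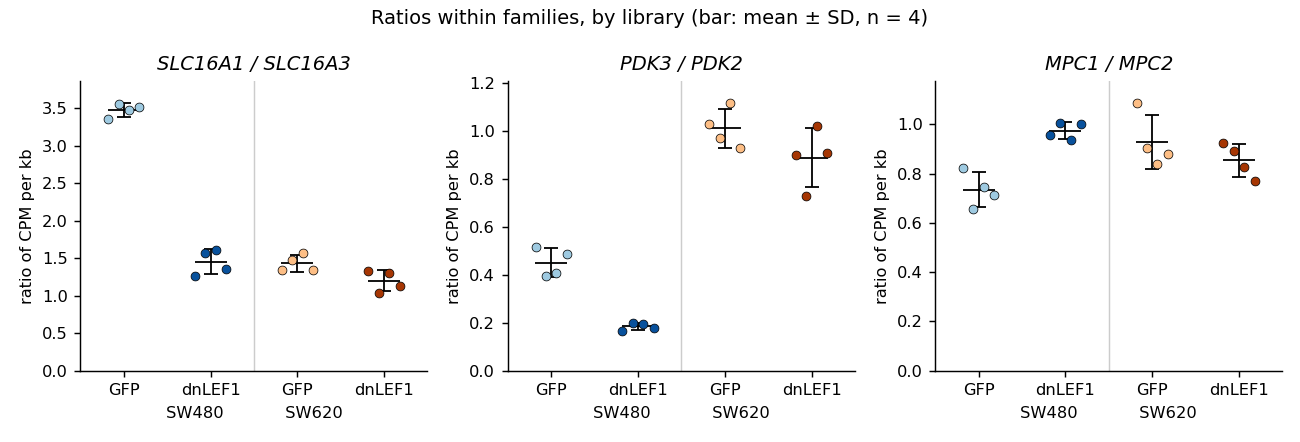
Ratios of CPM per kilobase (vertical axes, from 0) of SLC16A1 to SLC16A3, PDK3 to PDK2 and MPC1 to MPC2 in each library, with the mean ± SD of 4. SLC16A1 over SLC16A3 is 3.35 or more in SW480 GFP and 1.61 or less elsewhere.

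Genes that are neighbours on a chromosome moved together in some stretches of these cells, so the median of the 12 tested genes on each side was set beside each of the 8. Called neighbours stand beside 24.2% higher and 24.4% lower of all genes tested in SW480. Those shares were 6.03% and 2.43% in SW620, and 37.7% and 40.3% between the GFP groups. In SW480 the neighbours of SLC16A3 had a median log2 fold change of 0.28 (15 of 24 called higher), beside 0.43 for SLC16A3. The neighbours of PDK2 were at 0.24, beside 0.20, and those of PDK1 at −0.18 (11 of 24 called lower), beside −0.22. PDK3 (−1.07, neighbours −0.11), PDK4 (−0.73, neighbours −0.12) and SLC16A1 (−0.84, neighbours −0.18) were each lower than their neighbours' medians, though 7, 6 and 4 of the 24 single neighbours changed by more in either direction. MPC1 was at 0.38 with neighbours at 0.14, 18 of 23 of them above 0, and 9 of the 23 changed by more in either direction. In SW620 the neighbours of PDK4 had a median of 0.29, with 22 of 24 above 0 and 15 called higher, beside 0.31 for PDK4. PDK1 (−0.19) and SLC16A1 (−0.14) stood beside neighbours at 0.00 and −0.03. Between the GFP groups, PDK4 was at −3.07 with neighbours at −1.09, 19 of 24 of them called lower. There MPC2 was at 0.38 with neighbours at 0.35 (16 of 24 called higher), and PDK3 at 0.23 with neighbours at 0.47. SLC16A3 was at 0.93 with neighbours at 0.45 (17 of 24 called higher), and PDK2 at −0.95 with neighbours at −0.42 (16 of 24 called lower). MPC1 was at 0.72, SLC16A1 at −0.36 and PDK1 at 0.15, with neighbours at 0.30, 0.08 and −0.12. The part of such stretches in these values was not tested.

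**Figure D4:**
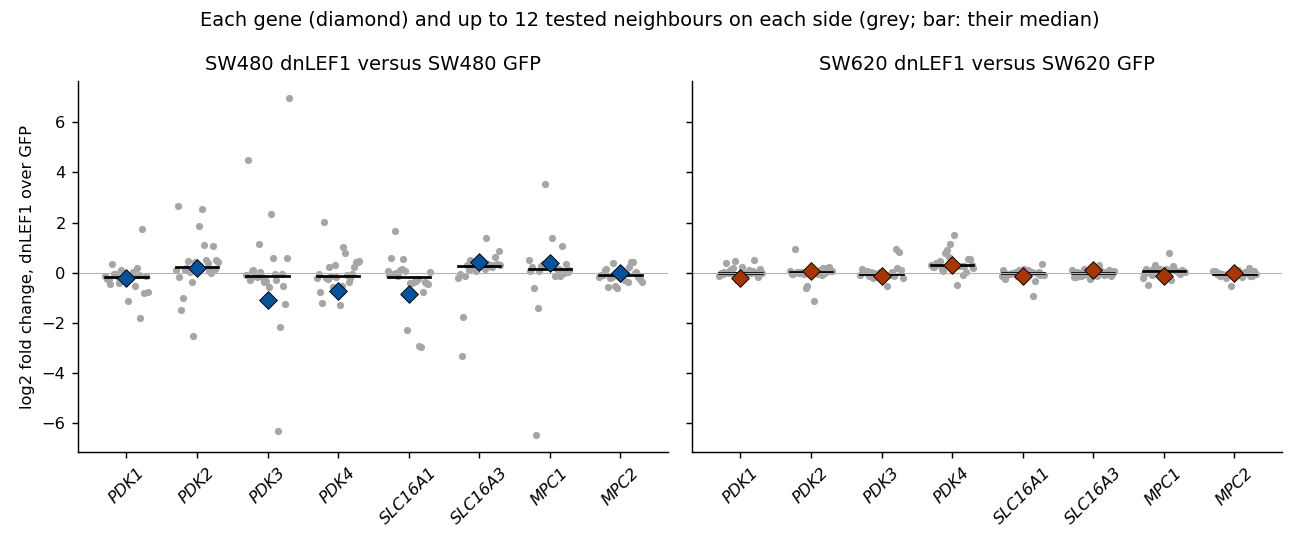
Log2 fold change of dnLEF1 over GFP (vertical axis) for each of the 8 genes (diamonds) and up to 12 tested neighbours on each side (grey points, placed by their order along the chromosome; bar, their median). In SW480 PDK3 (−1.07) lies below its neighbours' median of −0.11, and in SW620 PDK4 (0.31) lies at theirs (0.29).

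The genes whose log2 CPM followed the same course over the 16 libraries were sought among 11741 genes. PDK3 was most like ARHGAP32 (Pearson r 0.991), KLF13 (0.990) and ZNRF3 (0.989), the last a membrane ubiquitin ligase that damps Wnt receptors. SLC16A1 was most like TMEM47 (0.969), SLC1A5 (0.967), the glutamine carrier, and LMO4 (0.963). PDK4 was most like SLC35A5 (0.985), UNC13A (0.982) and AMPD3 (0.981), and PDK1 most like TRIM25 (0.917), STARD7 (0.898) and TCOF1 (0.895). All values of a library share its depth, and the 4 groups set most of each course, so these are descriptions.

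Genes of the complex that the PDK kinases act on shifted by small amounts in both directions. Counts of called genes in this and the following lists stand beside 48.5% of all genes tested in SW480 (24.2% higher, 24.4% lower). In SW620 that share was 8.46% (6.03% higher, 2.43% lower). Of 5 tested genes of the pyruvate dehydrogenase complex in SW480, DLD, the E3 subunit, rose (log2 0.20 ± 0.06) and DLAT, the E2 subunit (−0.27 ± 0.07), and PDHX, which binds E3 (−0.26 ± 0.06), fell, with a list median of −0.06. PDHA1, the subunit that the kinases phosphorylate, had 181 ± 7.07 and 196 ± 8.20 CPM in SW480 and 234 ± 13.05 and 227 ± 12.03 CPM in SW620, and was called in neither (edgeR adjusted p = 0.1239 and 0.7171). In SW620 only DLD of the 5 was called, higher by 0.39 ± 0.06. Of the 3 genes for the phosphatases that reverse the kinases, PDP2 rose (0.48 ± 0.11) and PDP1 (−0.23 ± 0.07) and the regulatory subunit gene PDPR (−0.43 ± 0.14) fell in SW480. In SW620 PDP1 alone was called, higher by 0.36 ± 0.09. Its SW480 call was lost without SW480 GFP replicate 4 (edgeR adjusted p = 0.05777) and its SW620 call without SW620 GFP replicate 4 (0.05527) or SW620 dnLEF1 replicate 1 (0.05425) or 3 (0.07426).

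Of 3 tested lactate dehydrogenase genes in SW480, LDHB (740 ± 68.2 to 945 ± 76.1 CPM, log2 0.36 ± 0.08, edgeR adjusted p = 0.002634) and LDHD, an enzyme of D-lactate at under 1 CPM (0.154 ± 0.0404 to 0.735 ± 0.211), rose. LDHA, which favours lactate production, was 1666 ± 161 and 1714 ± 210 CPM (log2 0.04 ± 0.09, edgeR adjusted p = 0.7261). In SW620 neither LDHA (log2 −0.08) nor LDHB (−0.07) was called. Of 11 other enzymes of pyruvate tested in SW480, 4 rose and 1 fell, with a median of 0.16: ME3, a mitochondrial malic enzyme (0.86 ± 0.11), PC, pyruvate carboxylase (0.37 ± 0.11), MDH1 (0.21 ± 0.07) and MDH2 (0.41 ± 0.06), malate dehydrogenases, and GPT2, an alanine transaminase (−0.26 ± 0.07). PKM, the pyruvate kinase of these cells, was not called there (log2 0.16 ± 0.07, edgeR adjusted p = 0.08472). PKM was called with DESeq2 (adjusted p = 0.0447), in the fit of 16 libraries (0.04451) and without SW480 dnLEF1 replicate 3 (0.04354). In SW620 only MDH2 of 11 was called, higher by 0.36 ± 0.06. DLD and MDH2 both lie on chromosome 7, and in SW620 23 of the 24 neighbours of each were above 0, with medians of 0.38 and 0.39. Their neighbours were looked at after the values of both genes were known, and the part of such a stretch in the calls was not tested.

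Of 11 tested relatives and chaperones of the monocarboxylate carriers, 4 rose and 2 fell in SW480 (median 0.18). Those that rose included SLC16A4 (0.70 ± 0.23), SLC16A9 (0.70 ± 0.17) and BSG (0.18 ± 0.07). BSG, the chaperone that brings SLC16A1 and SLC16A3 to the membrane, had 510 ± 26.8 and 577 ± 23.3 CPM. Its call was lost with the replicate block (edgeR adjusted p = 0.05822) and without SW480 GFP replicate 1 (0.07638) or 4 (0.07864) or SW480 dnLEF1 replicate 1 (0.05937) or 4 (0.07396). SLC16A6 (−0.63 ± 0.09) and SLC16A7 (MCT2, −0.98 ± 0.30) fell, the latter not called without SW480 GFP replicate 4 (edgeR adjusted p = 0.06436). SLC16A7 was scarce, at 2.31 ± 0.890 CPM with GFP and 1.17 ± 0.380 CPM with dnLEF1. SLC16A4 was at 3.36 ± 1.11 and 5.39 ± 1.25 CPM, and SLC16A9 at 7.08 ± 1.55 and 11.5 ± 2.32 CPM. For SLC16A4, SLC16A7 and SLC16A9 the SW480 groups overlapped. In SW620, 3 of 9 fell and 0 rose: SLC16A6 (−0.81 ± 0.18), SLC16A14 (−1.68 ± 0.30) and SLC16A13 (−0.47 ± 0.13). The SLC16A13 call was lost without any of SW620 GFP replicates 3 and 4 and SW620 dnLEF1 replicates 1, 3 and 4 (edgeR adjusted p up to 0.1283).

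**Figure D5:**
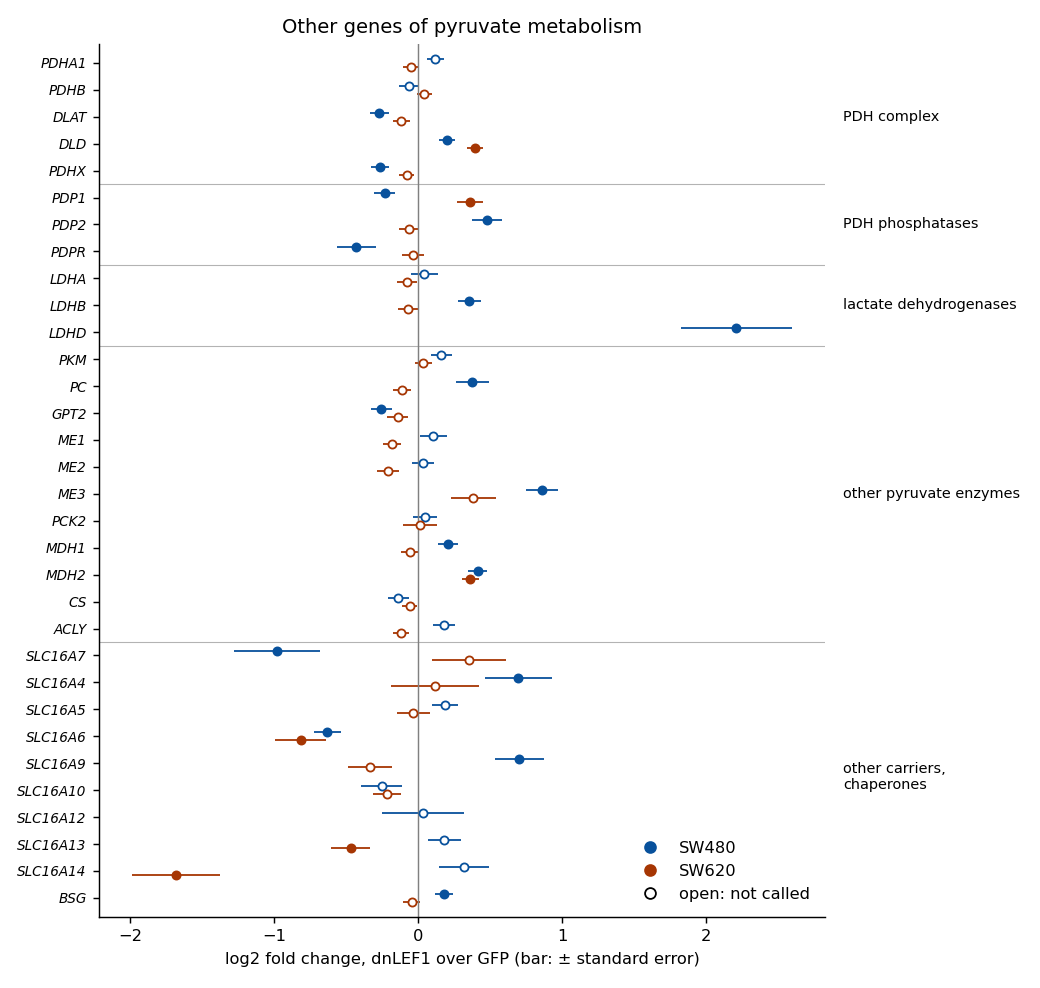
Log2 fold change of dnLEF1 over GFP (horizontal axis) ± standard error for tested genes of 5 lists, in SW480 (blue) and SW620 (orange), with filled points for called genes. DLD and MDH2 are called higher in both lines, at 0.20 and 0.41 in SW480 and 0.39 and 0.36 in SW620.

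Other targets of the factors known to act on these kinases and carriers were measured too. Of 28 hypoxia-induced genes tested in SW480, 9 rose and 11 fell (median −0.11), so they did not move one way. SLC2A3, a glucose carrier, fell 5.22-fold, VLDLR fell 4.47-fold and NDRG1 2.43-fold, while VEGFA rose 2.69-fold. In SW620, 0 of 29 rose and 6 fell (median −0.12), beside 6.03% higher and 2.43% lower of all genes tested. SLC2A3 fell by 1.03, DDIT4 by 1.20, EGLN3 by 0.50 and HK2 by 0.23 on the log2 scale. HK2 was not called without SW620 GFP replicate 2 (edgeR adjusted p = 0.06235). HIF1A itself was not called in SW480 (0.15 ± 0.08) or SW620 (0.04 ± 0.07). EPAS1, the gene of HIF-2 alpha, fell in SW480 from 232 ± 6.46 to 89.7 ± 13.9 CPM (edgeR adjusted p = 2.826e-08).

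Of 17 PPAR and fasting-induced genes tested in SW480, 7 rose and 4 fell (median 0.10). ANGPTL4 rose 10.5-fold and TXNIP 1.60-fold, and ACADL fell 6.52-fold. ANGPTL4 was scarce with GFP and went from 0.719 ± 0.424 to 7.77 ± 1.85 CPM with dnLEF1. ACADL was scarce and went from 1.53 ± 0.456 CPM with GFP to 0.231 ± 0.100 CPM with dnLEF1. In SW620, 1 of 15 fell, ETFDH (−0.33 ± 0.09), and its call was lost on leaving out SW620 GFP replicate 2 or 3 or SW620 dnLEF1 replicate 1, 2 or 3 (edgeR adjusted p up to 0.1044). Of 15 regulators tested in SW480, 3 rose and 4 fell (median −0.0044). They included NR3C1, the glucocorticoid receptor (12.7 ± 1.77 to 26.2 ± 3.29 CPM), and PPARD (71.0 ± 1.51 to 51.6 ± 3.06 CPM). PPARGC1A, a coactivator of mitochondrial genes, was scarce and moved in opposite directions: it rose from 0.442 ± 0.0568 to 2.07 ± 0.462 CPM in SW480 and fell from 0.723 ± 0.156 to 0.145 ± 0.0884 CPM in SW620 (edgeR adjusted p = 7.741e-06 and 0.003701). PPARGC1B fell in SW620 (−0.72 ± 0.11), 1 of 2 regulators of 14 that did. MYC was not called in SW480 (230 ± 16.7 and 237 ± 16.9 CPM) or SW620 (324 ± 30.2 and 303 ± 16.5 CPM).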

How the data were processed

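RNA was measured in 16 libraries of SW480 and SW620 cells made with a TruSeq kit that does not mark strand. Each deposited file holds unnormalized read counts for 26485 gene symbols. The submitters' processing notes name Trimmomatic, TopHat2, HTSeq, DESeq2 and the hg38 build. Their versions, the annotation and the strand setting: not given in the sources used here. HTSeq's lines for unassigned reads name no gene and stayed out of all library sizes and tests; their share was 20.0% to 24.3%, or 50.5% for replicate 3 of SW620 GFP. Reads aligned to several places are among them, so genes with near-identical copies may be undercounted; annotated pseudogenes of PDK1 and SLC16A1 exist.

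The test was edgeR 4.0.16 (R 4.3.3) with TMM, filterByExpr by group and the quasi-likelihood F test, each comparison on its own 8 libraries and the line difference as an interaction over 16. Adjusted p-values (Benjamini-Hochberg) cover all genes tested. CPM use 1 TMM scale over all 16 libraries, and standard errors and 95% intervals are approximate, from the test's F. Positions and lengths are from GENCODE 44. The script was tested on simulated counts. Replicate numbers were not taken to pair libraries, since the labels do not say what a number shares and same-numbered libraries did not all deviate together (r of −0.15 to 0.30 in SW480 and −0.03 to 0.45 in SW620, where 3 of 4 numbers were positive). No 2 libraries of a group agreed within sampling noise (chi-square per degree of freedom of 1.99 or more), but the pairs were uneven. In SW480, replicates 2 and 3 were much the closest, at 1.99 with GFP and 2.33 with dnLEF1. Pairs with replicate 1 were at 12.95 to 14.51 with GFP and 13.28 to 22.15 with dnLEF1. The 4 libraries of a group may thus not be equally independent, which was not tested.

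Alternatives were DESeq2 1.42.0, its size factors in edgeR, limma 3.58.1 voom, no filter, a replicate block, 1 fit of 16 libraries, each library left out, other lengths and 25 neighbours. The 8 genes and the 13 other lists were chosen with earlier results of these data known. Named are the 8 genes, LEF1, AXIN2, PDHA1, PKM, LDHA, LDHB, BSG, MYC, HIF1A, up to 4 called genes per list and comparison by smallest adjusted p (all where 5 or fewer), and the 3 genes most like PDK1, SLC16A1, PDK3 and PDK4. Some genes that this rule takes are not reported here.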

Additional observations from a re-analysis of the deposited data

Results flagged for a closer look

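PDK4 in SW620 dnLEF1 had 1 library, replicate 4, at 2.12 CPM, far above the others of its group by Dixon's criterion. MPC2 in SW480 dnLEF1 had 1 library, replicate 4, at 45.9 CPM, far above the others, which lay between 41.95 and 42.5 CPM. Among the 32 groups of 4 libraries examined, chance alone would single out about 1 in 20.

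The dnLEF1 effect differed between SW620 and SW480 by an interaction test for 5 genes: PDK3 by 0.96, PDK4 by 1.05, SLC16A1 by 0.70, SLC16A3 by −0.30 and MPC1 by −0.52 on the log2 scale (SW620 minus SW480), beside 28.5% of all 14926 genes tested. The call of PDK4 was lost on leaving out any of 3 single libraries (edgeR adjusted p up to 0.1138) and that of SLC16A3 on leaving out any of 7 (up to 0.08442). AXIN2 moved by −2.98 in SW480 and −0.06 in SW620, and the part of that difference in the 5 values was not tested.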

How the results depend on the processing

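Under the other scalings, tests and filters, the SW480 calls of PDK3, PDK4, SLC16A1, SLC16A3 and MPC1 kept their direction and side of the threshold in all 14 alternatives each, and so did the line differences of PDK3, SLC16A1 and MPC1 in all 21. In 1 fit of all 16 libraries PDK1 was called lower in SW480 (−0.22). With the replicate number as a block, genes called lower in SW620 went from 324 to 676, and 1 of the 8, SLC16A1, was called lower there (−0.14). The labels do not say that a number marks a shared culture, and same-numbered libraries correlated best with each other for 1 of 4 numbers in SW480 and 3 of 4 in SW620. The line difference of MPC2, 0.01 and not called, changed sign with DESeq2 size factors in edgeR (−0.0034) and with DESeq2 (−0.0041). With 25 neighbours on each side, the medians became 0.35 for PDK4 and −0.028 for MPC2 in SW620, and 0.17 for PDK3, 0.033 for SLC16A1, 0.54 for MPC1 and 0.16 for MPC2 between the GFP groups; the cause was not tested.

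Leaving out 1 library at a time gave, in SW480, −0.29 to −0.16 for PDK1, 0.12 to 0.29 for PDK2, −0.062 to 0.0097 for MPC2 and −0.043 to 0.10 for LDHA. In SW620 it gave −0.00087 to 0.47 for PDK4, −0.037 to 0.0029 for MPC2, −0.11 to 0.00018 for LDHB and −0.019 to 0.072 for HIF1A. For the line difference it gave −0.030 to 0.096 for PDK1, 0.74 to 1.20 for PDK4, −0.35 to −0.23 for SLC16A3 and −0.019 to 0.046 for MPC2, and 1 to 2 of the 8 genes called lower. Between the GFP groups PDK1 ranged from 0.10 to 0.20. The level of PDK4 in SW620, at 14 to 51 counts per library, limits what could be detected there.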
